A study of Mus musculus with 7 samples.

Results

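The genes described here carry the family names of the moving parts of motile cilia: the axonemal dyneins, the radial spokes, the tektins and the cilia and flagella associated proteins (Cfap). They were chosen by symbol as every entry of the count files whose name begins with Dnah, Dnai or Dnaic, Dnal, Cfap, Rsph or Tekt in its numbered or lettered forms, together with Foxj1, Ccdc39, Ccdc40 and Ccdc114. This gave 49 of the 24421 gene symbols. The question put to them was whether the rise of the dynein gene Dnah8 in Cic knockout cerebellum stands alone in its pathway.

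Whole cerebellum of C57BL/6 mice was profiled by RNA sequencing in 7 libraries. The CicKO group of 4 carries En1-Cre with Cic floxed on both chromosomes, and the 3 libraries titled Wildtype carry 1 floxed and 1 normal Cic allele with no Cre named. Both groups therefore carry a floxed Cic allele, and loss of Cic cannot be told apart from the presence of Cre. En1-Cre acts in cells derived from the embryonic midbrain and hindbrain territory, so cells of other origin in the dissected tissue keep their Cic alleles. Age, sex and litter are not in the labels. Cic encodes a transcriptional repressor. In bulk tissue, fewer cells of a type and less RNA per cell cannot be told apart.

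Motile cilia are hair-like extensions whose core, the axoneme, is a ring of doublet microtubules around a central pair. Outer and inner dynein arms on the doublets slide them past each other, and radial spokes and the central pair set the rhythm. In and around the cerebellum such cilia are carried in tufts by the ependymal cells that line the ventricle, and choroid plexus epithelium also bears cilia. Neurons and glia carry mainly the non-motile primary cilium, which lacks dynein arms.

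Libraries held 102653765 to 121285349 gene counts, so 3 counts, the limit that a count of 0 allows, correspond to 0.0245 to 0.0295 CPM (counts per 1000000, after TMM scaling of the library totals). Such limits cover counting error only. Cic was lower in every CicKO library, at 144 to 147 CPM, against 216 to 257 CPM in Wildtype (log2 fold change -0.66, SE 0.0622, edgeR adjusted p = 0.00256). Cerebellar markers were present in all libraries: summed Purkinje cell markers reached 7440 to 10568 CPM in CicKO and 7657 to 9109 CPM in Wildtype, and summed granule neuron markers 4518 to 5190 CPM in CicKO and 4750 to 5009 CPM in Wildtype. CicKO 3 and Wildtype 3 stood apart. Their 16 summed choroid plexus markers reached 12354 and 8500 CPM, against 215 to 316 CPM in the other CicKO and 246 and 373 CPM in the other Wildtype libraries. Values without both libraries are given for some, not all, of the members and pathway genes that these libraries set.

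Dnah8 encodes a heavy chain of the outer dynein arm, best known from the sperm flagellum. On GRCm38 it spans chromosome 17 from 30624354 to 30877365 on the plus strand. It had 161, 174, 174 and 174 counts in CicKO 1 to 4, against 53, 45 and 42 counts in Wildtype 1 to 3. On the CPM scale these were 1.59, 1.70, 1.53 and 1.65 in CicKO and 0.432, 0.420 and 0.368 in Wildtype. The groups were far apart and each was tight, with means of 1.62 ± 0.0764 CPM in CicKO and 0.407 ± 0.0342 CPM in Wildtype (SD, n = 4 and 3, as for later means). The log2 fold change was 1.99 (SE 0.162), or 3.97-fold with a 95% interval from 3.07 to 5.13 (edgeR adjusted p = 0.00142). Exons of 1700097N02Rik and AC165951.2 on the other strand overlap those of Dnah8, and with the strand setting unknown their reads cannot be told apart from its own there. By its p Dnah8 ranked 13 of the 16905 genes tested. As this rise was the reason for choosing the gene, it is given as the anchor for what follows and not as a finding.

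The stretch before the Dnah8 start is shown because CIC is known to bind TGAATGAA-like octamers and because Etv4, an ETS factor of the PEA3 group, was higher in CicKO (142 ± 11.9 CPM) than in Wildtype (16.5 ± 1.79 CPM; edgeR adjusted p = 8.01e-06). These are the 250 bases before the RefSeq start on GRCm38.p6, chr17:30626686-30626935, plus strand, and this start lies inside the gene span that GENCODE gives. Capitals mark AGGAAG, the PEA3 motif, read on the other strand as CTTCCT.
Dnah8: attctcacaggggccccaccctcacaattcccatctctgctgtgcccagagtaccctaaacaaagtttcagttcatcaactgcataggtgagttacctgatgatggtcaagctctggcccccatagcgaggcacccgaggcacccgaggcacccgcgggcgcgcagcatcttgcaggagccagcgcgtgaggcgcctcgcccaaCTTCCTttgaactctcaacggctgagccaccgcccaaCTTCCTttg

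None of the octamers TGAATGAA, TGAATGGA, TCAATGAA and TCAATGGA occurs on either strand of the Dnah8 window, which runs on to 50 bases past the start. Any of them is found in 3.84% of the 32851 RefSeq windows of that length, and among the 44 members with a window only Cfap126 holds 1. AGGAAG, looked for after the sequence had been read, occurs at 2 places in the Dnah8 window. It occurs at least once in 35.4% and at least 2 times in 8.62% of all windows. By gene, 9 of the 44 members hold it at least once and 2, Dnah8 among them, at least 2 times. These are matches of letters and say nothing of binding.

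Across all genes, 2.08% were called at an edgeR adjusted p below 0.05, 1.25% higher and 0.828% lower in CicKO. Of the 48 members tested, 1 was called higher, Dnah8, and 0 were called lower. Rsph6a, the sperm paralog of a spoke head gene, was too low to test, at 0 to 2 counts in CicKO libraries and 0 to 4 in Wildtype. At an unadjusted p below 0.05, 4 members were higher and 0 were lower, where 8.06% and 8.16% of all genes were. In either direction these were 8.33% of the members, close to or below the general rate. The 4 are dynein heavy chains and include Dnah8, which was chosen for its rise. Among the 47 others 3 were higher (6.38%). DESeq2 and limma-voom also called 0 members lower. CicKO and Wildtype did not overlap for 2 members (4.17%), both higher in CicKO, and for 1 of the 47 other than Dnah8 (2.13%). Over all genes 15.4% did not overlap, 7.06% higher and 8.36% lower in CicKO. The median log2 fold change of the 47 members other than Dnah8 was -0.08, with quartiles of -0.18 and 0.05, beside a median of 0.00 over all genes tested. Over all 48 members the median was -0.08 with 19 positive values, but 0.10 with 34 positive values when the replicate number was a block. CicKO 4 has no same-numbered Wildtype library, so under this block it adds nothing to the genotype estimate. In the fit without CicKO 4 the median was 0.12 with 33 positive values.

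**Figure D1:**
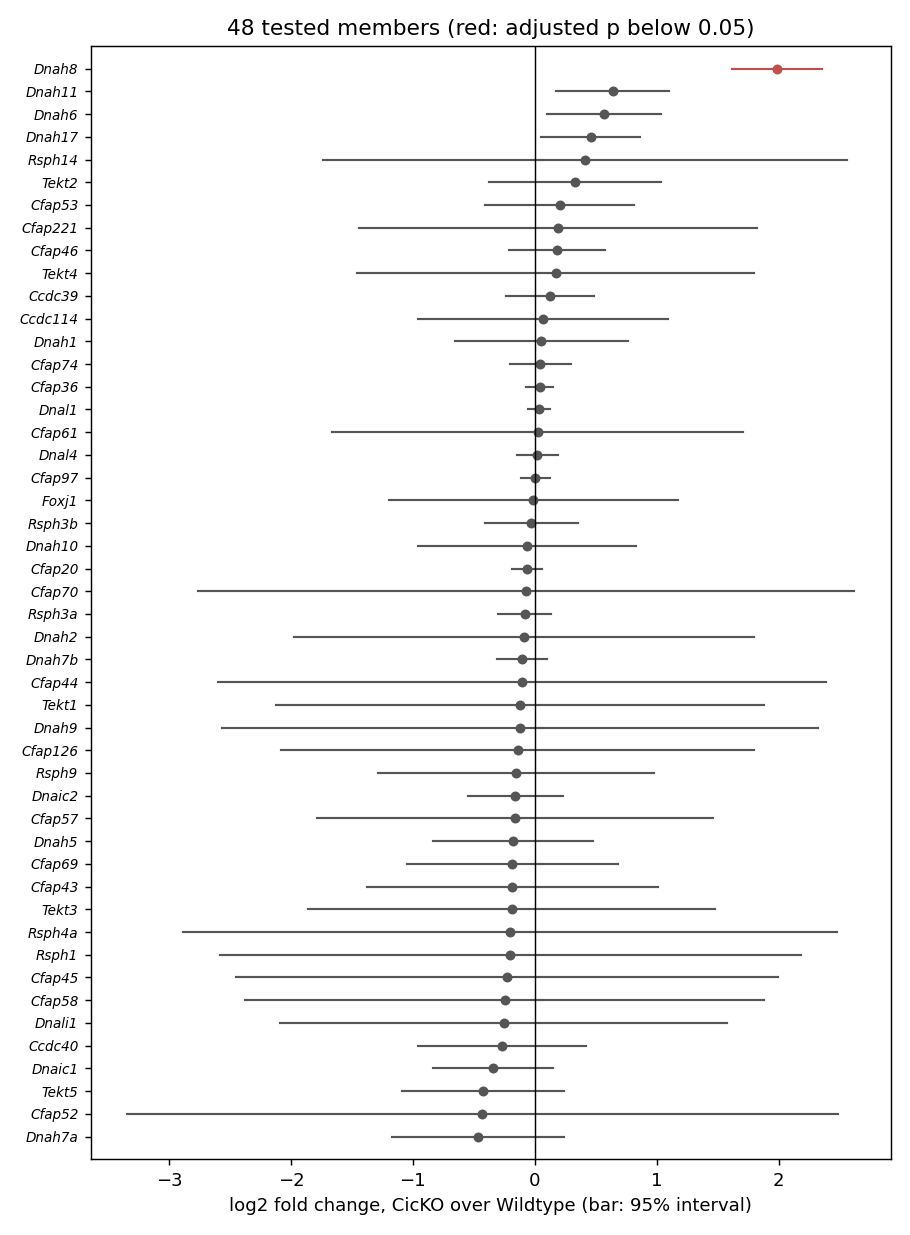
Log2 fold change of CicKO over Wildtype for the 48 tested members, with 95% intervals as bars. Dnah8 at 1.99 is the 1 called gene (red), no other point passes 0.64, and many intervals reach beyond a doubling in both directions.

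The limits of the comparison differ among members. In 32 of the other 47 the upper 95% bound lay below the lower bound of Dnah8, 1.62 on the log2 scale, and in 23 it lay below a doubling. The interval stayed within a doubling in both directions for 19. For the rest, spread among libraries left room for large changes: Cfap52, a protein inside the doublet microtubules, had an interval from -3.34 to 2.48 on the log2 scale. Its log2 fold change was -0.43, and -0.65 without both libraries numbered 3 (edgeR adjusted p = 0.901 and 0.682). A member that was not called is thus not shown to be unchanged. The intervals within a doubling include those of Cfap36, Dnal1, Cfap20, Cfap97 and Dnal4. These genes averaged 29.2 to 86.1 CPM over all libraries, against 11.3 CPM for Foxj1. In them CicKO 3 and Wildtype 3 were at 0.88 to 1.10 times the mean of the others in their group. Whether their levels follow motile cilia in this tissue was not tested.

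Of the other outer arm heavy chains, Dnah11 and Dnah17 had the largest positive log2 fold changes. Dnah11, whose loss in mice disturbs left-right asymmetry, was at 46.5, 53.6, 81.8 and 50.3 CPM in CicKO 1 to 4, against 33.6, 38.4 and 39.9 CPM in Wildtype 1 to 3. All 4 CicKO libraries lay above Wildtype, with CicKO 3 far above the rest. The log2 fold change was 0.64 (SE 0.197, 95% interval from 0.17 to 1.10), and the edgeR adjusted p of 0.177 missed the threshold. With the replicate number as a block it passed (edgeR adjusted p = 0.0498), as it did without CicKO 3 (log2 fold change 0.43, edgeR adjusted p = 0.0238) and without both libraries numbered 3 (0.48, edgeR adjusted p = 0.0376). Exons of Dnah11 overlap those of Cdca7l on the opposite strand, which was at 1.07 ± 0.0267 CPM in CicKO and 0.924 ± 0.106 CPM in Wildtype.

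Dnah17, another outer arm heavy chain known from sperm, was at 2.31, 1.93, 2.23 and 2.40 CPM in CicKO 1 to 4 and 1.46, 2.03 and 1.36 CPM in Wildtype 1 to 3. Wildtype 2 reached into the CicKO range, and the log2 fold change of 0.46 (SE 0.177) had an edgeR adjusted p of 0.253. Its exons overlap those of the more abundant gene Pgs1 on the other strand. Dnah5, the heavy chain most often mutated in primary ciliary dyskinesia and a close relative of Dnah8, was at 1.59 to 3.41 CPM in CicKO and 1.87 to 3.36 CPM in Wildtype, with a log2 fold change of -0.18 and a 95% interval from -0.83 to 0.47. Dnah9, its partner in respiratory cilia, ran from 0.751 to 7.81 CPM in CicKO and from 0.944 to 6.43 CPM in Wildtype. The CicKO and Wildtype ranges of both genes overlapped. Without both libraries numbered 3, the log2 fold change was -0.27 for Dnah9 (edgeR adjusted p = 0.799), against -0.12 with them.

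Dnah6, an inner arm heavy chain, was at 34.0, 30.3, 43.9 and 32.5 CPM in CicKO 1 to 4, against 18.7, 21.3 and 31.2 CPM in Wildtype 1 to 3. Only Wildtype 3 reached the CicKO range. The log2 fold change was 0.57 (SE 0.199, 95% interval from 0.10 to 1.03; edgeR adjusted p = 0.222). The replicate block brought it past the threshold (0.62, edgeR adjusted p = 0.00821), and so did leaving out both libraries numbered 3 (0.69, edgeR adjusted p = 0.0105). With these settings, then, 3 members were higher in place of 1: Dnah8, Dnah11 and Dnah6. Dnah7b was at 38.6 ± 2.87 CPM in CicKO and 41.6 ± 5.07 CPM in Wildtype, and its near copy Dnah7a at 0.552 ± 0.153 CPM in CicKO and 0.762 ± 0.235 CPM in Wildtype. Reads can be split between these copies, so their separate levels are uncertain. Dnah1, Dnah2 and Dnah10 had log2 fold changes between -0.09 and 0.05. That of Dnah2 had a wide 95% interval, from -1.98 to 1.80, and was -0.18 without both libraries numbered 3 (edgeR adjusted p = 0.802).

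**Figure D2:**
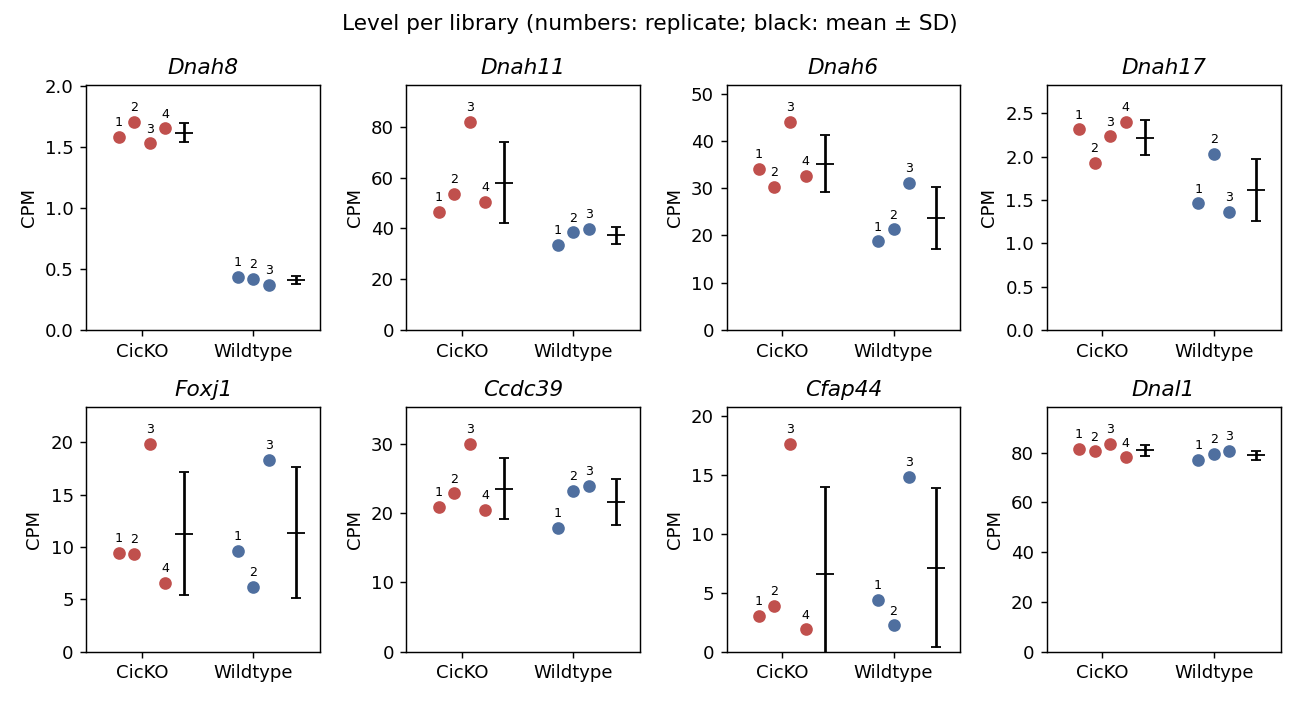
CPM of 8 members in each library, CicKO left of Wildtype, with replicate numbers, and mean ± SD in black; for Cfap44 the lower end of the CicKO bar falls below 0 and is cut off by the axis. Dnah8 separates the groups with little spread, Dnah11 and Dnah6 lie higher in CicKO with CicKO 3 on top, and Foxj1 and Cfap44 are high in CicKO 3 and Wildtype 3.

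Smaller dynein subunits gave no call. The outer arm intermediate chain genes Dnaic1 and Dnaic2 had log2 fold changes of -0.34 and -0.16 (edgeR adjusted p = 0.481 and 0.702). Dnal1, a light chain of the outer arm, was among the steadiest members, at 80.9 ± 2.23 CPM in CicKO and 79.0 ± 1.86 CPM in Wildtype. Its 95% interval ran from -0.06 to 0.13 on the log2 scale. Dnal4, another light chain, was at 26.5 to 31.8 CPM in CicKO and 27.4 to 30.5 CPM in Wildtype. Dnali1, an inner arm light intermediate chain, ranged from 0.656 to 3.53 CPM in CicKO and from 0.551 to 3.39 CPM in Wildtype, with the libraries numbered 3 highest in both groups. Its log2 fold change was -0.25 with them and -0.28 without them (edgeR adjusted p = 0.907 and 0.809).

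The 17 Cfap genes had 7 positive and 10 negative log2 fold changes, and 0 were called. Cfap36 was the most abundant, at 87.1 ± 2.42 CPM in CicKO and 84.7 ± 4.59 CPM in Wildtype, and Cfap97 and Cfap20 followed at 34.1 ± 1.49 and 34.1 ± 0.887 CPM in CicKO against 34.0 ± 0.835 and 35.7 ± 1.98 CPM in Wildtype. Their 95% intervals were narrow, from -0.07 to 0.15, from -0.11 to 0.12 and from -0.19 to 0.06 on the log2 scale. Cfap46, of the central pair, had a log2 fold change of 0.18 (edgeR adjusted p = 0.647).

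Radial spoke and tektin genes likewise gave no call. Among 6 tested spoke genes 5 had negative log2 fold changes. Rsph9, a spoke head gene, was at 4.69 ± 2.82 CPM in CicKO and 5.22 ± 2.57 CPM in Wildtype. Rsph1 of the spoke head ran from 0.694 to 7.18 CPM in CicKO and from 0.944 to 6.57 CPM in Wildtype. Its log2 fold change was -0.20 both with and without the libraries numbered 3 (edgeR adjusted p = 0.947 and 0.88). Rsph3a of the stalk was at 6.86 ± 0.459 CPM in CicKO and 7.27 ± 0.467 CPM in Wildtype. Rsph3a and Rsph3b are near copies and may share reads. Rsph14 was the spoke gene with the positive value, 0.41 on the log2 scale, at under 0.4 CPM in each library (edgeR adjusted p = 0.872). Tektins are filament proteins inside the doublets. Tekt5 had a log2 fold change of -0.42 (edgeR adjusted p = 0.524), Tekt2 had 0.33 (edgeR adjusted p = 0.649) Tekt1 had -0.12 (edgeR adjusted p = 0.964) and Tekt3, the lowest of the tektins, had -0.19 (edgeR adjusted p = 0.93).

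Foxj1 encodes the transcription factor that switches on the motile cilium programme. It was at 9.41, 9.31, 19.8 and 6.60 CPM in CicKO 1 to 4, against 9.64, 6.15 and 18.4 CPM in Wildtype 1 to 3. CicKO 3 and Wildtype 3 were high together and the other libraries of both groups overlapped. The log2 fold change was -0.01 with a 95% interval from -1.20 to 1.17, and 0.09 without both libraries numbered 3 (edgeR adjusted p = 0.894). Ccdc39 and Ccdc40, the ruler proteins that space dynein arms along the doublet, had 0.12 and -0.27 (edgeR adjusted p = 0.749 and 0.711), and Ccdc114, a docking protein of the outer arm, had 0.07 (edgeR adjusted p = 0.959). Exons of Ccdc39 overlap those of the far more abundant Ttc14, so its level is uncertain without strand.

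Most members varied with the library more than with genotype. Of the 47 other than Dnah8, 40 (85.1%) were highest in CicKO 3 among knockouts and also highest in Wildtype 3 among Wildtype libraries, as were 15.9% of all genes tested. In 20 of the 47 (42.6%) both of these libraries exceeded the mean of the others in their group more than 2-fold, against 2.06% of all genes. Cfap44, a tether of inner arm dynein, is an example chosen after its values had been seen: it was at 3.04, 3.89, 17.6 and 1.88 CPM in CicKO 1 to 4 and 4.37, 2.22 and 14.8 CPM in Wildtype 1 to 3. Its log2 fold change was -0.11 with both libraries numbered 3 and -0.17 without them (edgeR adjusted p = 0.974 and 0.884). At the other end, CicKO 4 was the lowest knockout for 32 and Wildtype 2 the lowest Wildtype library for 35 of the 47. Dnah8 did not share the pattern: CicKO 3 and Wildtype 3 were each the lowest of their group. Choroid plexus marker sums were highest in the same libraries, as given above. In a fit that carried the choroid plexus score beside genotype, Dnah8 (log2 fold change 1.98, edgeR adjusted p = 0.000928), Dnah11 (0.65, edgeR adjusted p = 0.0125) and Dnah6 (0.64, edgeR adjusted p = 0.00429) were called higher and 0 members lower.

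**Figure D3:**
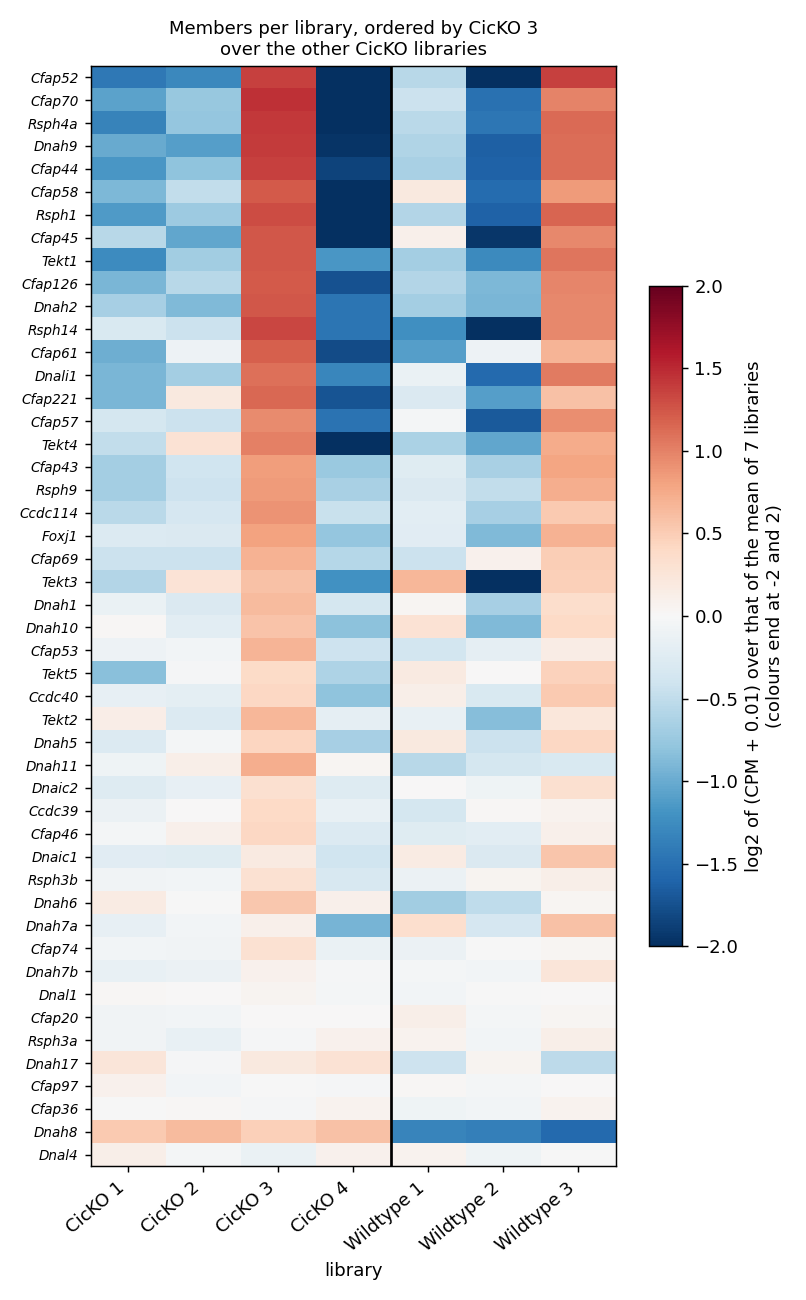
Level of each tested member in each library on a log2 scale relative to its mean over the 7 libraries, CicKO left of the line and Wildtype right of it, ordered by the ratio of CicKO 3 to the other knockouts. The upper rows are high (red) in CicKO 3 and Wildtype 3 and low in CicKO 4 and Wildtype 2, the lower rows are flat, and Dnah8 near the bottom splits by genotype.

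The sum of 17 ependymal markers varied far less, at 94.8 to 134 CPM in CicKO and 102 to 128 CPM in Wildtype, but Tppp3, which many other brain cells express, was the largest part of it and was lowest in the libraries numbered 3 (60.4 CPM in CicKO 3 and 63.4 CPM in Wildtype 3). Ccdc153, a more specific marker chosen after its values had been seen, was at 1.53, 2.04, 2.94 and 0.124 CPM in CicKO and 2.55, 0.944 and 3.27 CPM in Wildtype. Dynlrb2, chosen in the same way, was at 0.669, 0.803, 3.68 and 0.399 CPM in CicKO and 1.12, 0.682 and 4.02 CPM in Wildtype. Apart from Tppp3 and Hydin, each listed marker was highest in CicKO 3 among knockouts and in Wildtype 3 among Wildtype libraries. Hydin was highest in CicKO 3 and in Wildtype 1. None of the 17 was at 0 in all libraries, and 0 were called in either direction (median log2 fold change -0.19), as were 0 of the 16 choroid plexus markers (median 0.18).

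Levels per length place Dnah8 among the least abundant members. Divided by the summed exon length of GENCODE M21, it stood at 0.0603 CPM per kb in CicKO, rank 43 of 49, and 0.0152 CPM per kb in Wildtype, rank 48. On the same scale Dnah5, Dnah6 and Dnah11 were at 0.153, 2.66 and 4.01 CPM per kb in CicKO and at 0.173, 1.79 and 2.58 CPM per kb in Wildtype. Cfap36 was the highest of the members, at 31.7 CPM per kb in CicKO and 30.9 CPM per kb in Wildtype.

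A feature that many members share outside the rule is a match to the RFX motif near the gene start. RFX factors work with FOXJ1 on ciliary genes through the X-box, which commonly begins GTTGCC. The motif GTTGCCNNG (either strand) occurred in 10 of 51 member windows (19.6%) and in 5% of all windows. The wider GTTGCNNNG, which includes the matches of GTTGCCNNG and was written after the windows had been read, occurred in 31 member windows (60.8%) and in 13.5% of all. By gene this is 28 of the 44 members with a window. Of the 11 Dnah genes with a window 7 hold it, Dnah6 and Dnah17 among them. Dnah2, Dnah5, Dnah8 and Dnah11 do not. The following 30-base stretches (RefSeq windows, GRCm38.p6, gene strand) show the matches in capitals, for 6 dynein heavy chains, each taken at the match farthest before the start.
Dnah7a, chr1:53706822-53706851: ccgccagtttGTTGCTTAGCAACgaatcga
Dnah7b, chr1:46066819-46066848: ccgccagtttGTTGCTTAGCAACgaatcga
Dnah1, chr14:31323913-31323942: ggtcccgcccCCTCGCAACggactcagtgt
Dnah9, chr11:66168610-66168639: ccaccagtttCCCAGCAACaacgacgcgac
Dnah10, chr5:124725055-124725084: cgctggcgccGTTGCCCAGgtccccgttgc
Dnah17, chr11:118129354-118129383: cccttgtcacCAGCGCAACcacagataaaa

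In Dnah7a and Dnah7b the motif reads on both strands, as arms of an inverted repeat around a central base, and their stretches are identical letter for letter.

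Beyond the members, 121 further gene symbols of the pathway were listed, of which 115 are in the count files and 112 were tested. Among them 0 were called higher and 1 lower, Ccdc63, with 4 higher and 6 lower at an unadjusted p below 0.05. Lower calls made up 0.828% of the whole tested set, so 1 among 112 is close to the general rate. The unadjusted limit was passed, in either direction, by 16.2% of that whole set. Ccdc63 encodes a relative of the outer arm docking protein CCDC114 known from sperm flagella. It was at 6.27, 6.33, 6.01 and 6.27 CPM in CicKO 1 to 4, against 9.68, 9.29 and 9.55 CPM in Wildtype 1 to 3. The groups lay well apart with little spread in each, and the libraries numbered 3 were like the rest. The log2 fold change was -0.61 (SE 0.0756, edgeR adjusted p = 0.00757). This call was lost in 1 of the 16 alternatives, the fit that carried each library's no-feature percentage beside genotype (-0.57, edgeR adjusted p = 0.115). That percentage runs in part with genotype, at 18.2 to 19.0 in CicKO and 16.0 to 18.6 in Wildtype. Exons of Ccdc63 overlap those of Myl2, which was at 0.368 ± 0.0677 CPM in CicKO and 0.304 ± 0.103 CPM in Wildtype. The other docking genes listed, Armc4, Ttc25, Ccdc151 and Mns1, were not called.

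The genes that fold dynein arms before they enter the cilium had 13 negative log2 fold changes of 14 tested, with a median of -0.16 and 0 calls. Over all genes, 8659 of 16905 were negative. Only 1 of the 14 was lower at an unadjusted p below 0.05, where 8.16% of all genes were. The nearest to the threshold was Ruvbl1, a chaperone ATPase with many clients outside cilia (31.9 ± 0.790 CPM in CicKO and 35.9 ± 0.751 CPM in Wildtype, edgeR adjusted p = 0.11). Of 13 regulators of multiciliation 0 were called. Trp73, the p53 relative that acts above Foxj1, was at 15.5, 15.9, 24.0 and 15.8 CPM in CicKO and 11.4, 9.62 and 15.0 CPM in Wildtype. Its CicKO and Wildtype libraries did not overlap (log2 fold change 0.57, edgeR adjusted p = 0.227), and it was called with the replicate block (0.61, edgeR adjusted p = 0.00927) and without both libraries numbered 3 (0.58, edgeR adjusted p = 0.0312). Rfx3 had 0.16 (edgeR adjusted p = 0.35) and E2f5 had -0.14 (edgeR adjusted p = 0.306).

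Central pair, radial spoke and nexin link genes gave 0 calls among 11, 6 and 11 tested, with medians of -0.19, -0.04 and 0.02. Spag17 of the central pair had the smallest p of these (log2 fold change 0.53, edgeR adjusted p = 0.272). Its exons overlap those of Wdr3 on the other strand, so its level is uncertain without strand. Wdr3 was at 40.8 ± 1.49 CPM in CicKO and 40.2 ± 2.64 CPM in Wildtype. The 40 genes of dynein 2 and intraflagellar transport, which all cilia need, had a median log2 fold change of 0.02 within a range of -0.19 to 0.21 and 0 calls. Arl3 and Kif17 came nearest (-0.18 and 0.20, edgeR adjusted p = 0.176 and 0.192). Of 13 cytoplasmic dynein 1 genes, the motor of retrograde transport in axons, 0 were called. The light chain gene Dynll1 was at 77.8 ± 7.22 CPM in CicKO and 98.4 ± 4.96 CPM in Wildtype (log2 fold change -0.34, edgeR adjusted p = 0.066), without overlap.

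**Figure D4:**
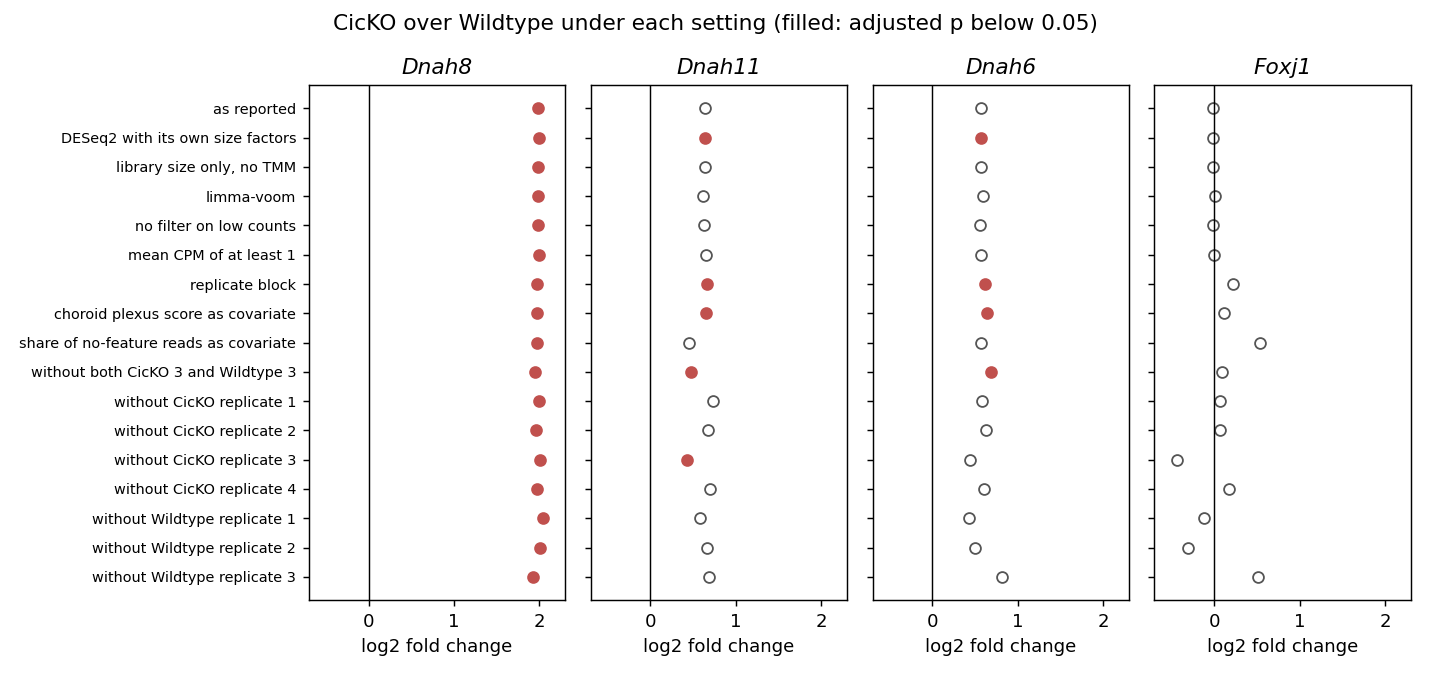
Log2 fold change of 4 members under the reported setting and 16 alternatives, filled where the adjusted p is below 0.05. Dnah8 stays between 1.92 and 2.04 and is called in all of them, Dnah11 is called in 5 and Dnah6 in 4, and Foxj1 changes sign in 9, some of them with all libraries kept.

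Dnah8 was called under every alternative run, with log2 fold changes from 1.92 to 2.04. Its adjusted p ran from 4.25e-19 (DESeq2) to 0.0343 (edgeR with the no-feature percentage beside genotype). The alternatives refit the same counts in which Dnah8 was chosen for its rise, so they are no separate support. It passed the filter on a mean CPM of at least 1 only through CicKO (1.62 CPM, against 0.407 CPM in Wildtype). Dnah11 was called in 5 of the 16 alternatives (adjusted p from 0.00622 to 0.755) and Dnah6 in 4 (adjusted p from 0.00429 to 0.685), from edgeR, DESeq2 or limma-voom as the alternative sets. No other member was called in any of them.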

How the data were processed

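Each library has 1 table of raw counts by gene symbol as the authors deposited it, with no normalization. The submitters' processing notes name the aligner STAR (2.5.3a), the counter HTSeq, the build mm10 and DESeq2. Which annotation and strand setting they used is not given in the sources used here. Per the labels' protocols, cDNA was amplified from poly(A) and random primers. The 5 HTSeq summary rows were left out. Reads in no feature were 18.2% to 19.0% of entries in CicKO and 16.0%, 18.6% and 16.5% in Wildtype 1 to 3.

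Counts were fitted in R 4.3.3 with edgeR 4.0.16 (filterByExpr, TMM, robust quasi-likelihood F test, genotype only, Benjamini-Hochberg over 16905 genes, call below 0.05), tested first on simulated data. DESeq2 1.42.0 and limma 3.58.1 were alternatives. SE is the log2 fold change over the square root of F, and 95% intervals use the fit's t quantile. The labels do not say that libraries are separate animals, so p-values may measure technical spread; within groups, pairs differed by 18.5 to 157 times sampling variance. Coordinates, exon lengths and exon overlaps are from GENCODE M21 (GRCm38), found for all 49 members; 22 members had an overlapping exon.

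Replicate numbers 1 to 3 occur in both groups. CicKO 4 has no same-numbered Wildtype library and adds nothing to the genotype estimate when the number is a block. Deviations of same-numbered libraries correlated across genes at 0.135, 0.251 and 0.691, above the limit of 0.1 used for pairing, but unlike-numbered ones reached 0.299. The block is given beside the calls and the members' median that it changed.

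Members, lists and tests were chosen with earlier results of these data known. Named genes are Dnah8, Foxj1, Ccdc39, Ccdc40 and Ccdc114, the called members, the 3 most abundant and 3 smallest p of each family, and up to 3 genes of each further list by p; Cic, Etv4 and genes within 300 kb of Dnah8 complete the rule, and any other gene was named with its values in view. Of the other marker lists, 1 of 8 oligodendrocyte and 2 of 6 Bergmann glia markers were called lower, where 0.828% of all genes were. Of the Purkinje cell and granule neuron markers, 0 of 6 and 0 of 7 were called. All 8 oligodendrocyte and 4 of 6 Bergmann glia markers had negative log2 fold changes (medians -0.31 and -0.20). All 6 Purkinje cell markers had positive ones (median 0.19), and 3 of 7 granule neuron markers did. What these shifts mean for the members was not tested. Promoter sequence of 1 further member is not reported here.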

Additional observations from a re-analysis of the deposited data

Results flagged for a closer look

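In the 4 CicKO libraries 14 of the 48 tested members had 1 library set apart from the other 3 by a gap above Dixon's critical share of the whole range, and in all 14 it was CicKO 3 and it was high. Chance alone flags about 1 in 20 groups of 4, and these members share their libraries, so the flags are not separate events. CicKO 3 had 17.6 CPM of Cfap44, against 1.88 to 3.89 in the other knockouts, 17.1 CPM of Cfap69, against 7.07 to 7.80, and 22.0 CPM of Cfap74, against 16.2 to 17.1. Ccdc114 was at 8.92, Cfap43 at 9.44 and Cfap52 at 4.73 CPM in that library. Among dyneins it had 3.60 CPM of Dnah1, 6.87 of Dnah2, 7.81 of Dnah9, 7.68 of Dnaic2 and 3.53 of Dnali1. For the spokes and tektins it had 7.18 CPM of Rsph1, 8.90 of Rsph9 and 5.27 of Tekt1. CicKO 3 also held the highest choroid plexus marker sum (12354 CPM), and the part of this in the values was not tested.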

How the results depend on the processing

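Over all genes, 212 were called higher and 140 lower in CicKO. DESeq2 gave 680 and 507, a choroid plexus covariate 380 and 315, and a no-feature percentage covariate 46 and 12. The replicate block gave 310 and 204. Leaving out each library in turn gave 65 to 493 higher (fewest without CicKO 1, most without CicKO 3) and 21 to 349 lower (the same libraries). Members called higher numbered 1, but 3 with DESeq2, the replicate block, the choroid plexus score or without both CicKO 3 and Wildtype 3, and 1 to 2 when leaving out each library in turn (2 without CicKO 3). Members called lower were 0 throughout. The cause of these shifts was not tested. The replicate block changed no other member's call. The median log2 fold change of the members moved between -0.44 (without CicKO 3) and 0.35 (without Wildtype 3), while that of all genes stayed between -0.01 and 0.00. With all libraries in use, the members' median was 0.22 with the no-feature percentage covariate, which runs in part with genotype. Under the replicate block it was 0.10, but there CicKO 4 has no same-numbered Wildtype library and adds nothing to the genotype estimate. Without CicKO 4 the members' median was 0.12. The sign of the members' median thus depends on the libraries and on the covariates. Among the further pathway genes, analysed under the same alternatives after the data had been seen, Trp73 was called in 4, Dynll1 in 2 and Ruvbl1 in 1. Low counts limit members under 1 CPM, such as Cfap61, Rsph14 and Tekt3.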

Other observations

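No tested gene beside Dnah8 was called. Of the 28 genes annotated within 300 kb, 9 are in the count files, 5 were tested and 0 were called, with 2 at an unadjusted p below 0.05. Over all genes 2.08% were called, 16.2% passed the unadjusted limit and 15.4% had groups without overlap. Glo1, whose body overlaps the 5' end of Dnah8 on the other strand, was at 108, 113, 110 and 113 CPM in CicKO 1 to 4 and 113, 102 and 118 CPM in Wildtype 1 to 3 (log2 fold change 0.00, edgeR adjusted p = 0.993). Umodl1, 77.3 kb away, was at 0.105 to 0.220 CPM in CicKO and 0.0438 to 0.0816 CPM in Wildtype, without overlap (log2 fold change 1.42, edgeR adjusted p = 0.13). Glp1r, the GLP-1 receptor gene 24.5 kb away, went the other way, also without overlap. It was at 0.0380 to 0.0967 CPM in CicKO and 0.105 to 0.234 CPM in Wildtype (log2 fold change -1.37, edgeR adjusted p = 0.214). Umodl1 and Glp1r rest on 4 to 25 counts per library. Btbd9, 47.9 kb away, was lower in CicKO without overlap, at 58.6 to 60.0 CPM, against 61.9 to 64.1 CPM in Wildtype. Its log2 fold change was -0.08 (edgeR adjusted p = 0.34). Abcg1, 180.3 kb away, had 0.00 (edgeR adjusted p = 0.991) and its groups overlapped. The long noncoding gene 1700097N02Rik, whose exon overlaps one of Dnah8, had 0 to 2 counts in CicKO libraries and 1 to 5 in Wildtype. The antisense gene AC165951.2 also overlaps an exon of Dnah8 and is not among the 9 genes in the count files. Without a known strand setting, reads from it cannot be told apart from those of Dnah8.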
